A study of Mus musculus with 12 samples.

Results

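The genes described here encode the protein subunits of oxidative phosphorylation, and they were chosen from the liver count table by gene symbol. The symbols were those of the *Nduf*, *Sdh*, *Uqcr*, *Cox* and *Atp5* families and of the mitochondrial genes *mt-Nd*, *mt-Co*, *mt-Atp* and *mt-Cytb*. Of 54838 gene identifiers, 96 protein-coding ones matched, and 90 of these had at least 10 counts in at least 3 libraries. These 90 members were 77 genes of the nuclear genome and all 13 protein-coding genes of the mitochondrial genome, out of 13255 genes that passed the same floor. Liver RNA was sequenced from 12 female wild-type C57BL/6J mice, aged 8 to 14 weeks by the methods, with 3 in each of 4 groups. For 7 days the drinking water was either plain or held 25 mM ZnSO4, and PBS alone or 200 µg dexamethasone (Dex, a synthetic glucocorticoid) in PBS was then given intraperitoneally, 2 h before sampling. The control is water-PBS, the single treatments are zinc-PBS and water-Dex, and zinc-Dex had both.

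Oxidative phosphorylation passes electrons from NADH and succinate along complexes I to IV of the inner mitochondrial membrane to oxygen, and complex V, the ATP synthase, uses the proton gradient that this builds. Most subunits are made from nuclear genes and imported, while the mitochondrial genome encodes a small set of core subunits of complexes I, III, IV and V and none of complex II. The mitochondrial genes are transcribed from each strand as long RNAs that are cut into single transcripts, whereas each nuclear subunit has a promoter of its own. The liver is rich in mitochondria, and its glucose production after a glucocorticoid draws on their ATP.

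Near-identical stretches of sequence bear on how far the mitochondrial genes could be counted, since the authors excluded reads that mapped to more than 1 place. The GENCODE M21 annotation of GRCm38 lists 7 genes on chromosome 1, between bases 24611535 and 24616197 of the minus strand, that copy a stretch of the mitochondrial genome from *mt-Co1* to *mt-Nd4*. The copy of *mt-Co3*, *Gm28437*, matched it over 783 of 783 bases, and the copy of *mt-Nd3*, *Gm28438*, differed at 1 of 345 bases (T3C, mitochondrial base first, counted from 1 at the start of the gene). The first 60 bases of both pairs are shown, with the differing base in capitals, because a read within the *mt-Co3* pair matches both places.
mt-Nd3 (chrM:9459-9518, plus strand): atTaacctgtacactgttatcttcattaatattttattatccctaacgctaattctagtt
Gm28438 (chr1:24613060-24613119, minus strand): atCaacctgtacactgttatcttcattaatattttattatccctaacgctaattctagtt
mt-Co3 (chrM:8607-8666, plus strand): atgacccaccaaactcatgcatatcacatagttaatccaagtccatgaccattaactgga
Gm28437 (chr1:24613912-24613971, minus strand): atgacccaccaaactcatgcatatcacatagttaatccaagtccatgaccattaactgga

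The copy of *mt-Co1*, *Gm29216*, covers only the last part of the gene, and 6 of 492 bases differed, all at its start. The edge of the copied stretch is shown with the differing bases in capitals.
mt-Co1 (chrM:6381-6440, plus strand): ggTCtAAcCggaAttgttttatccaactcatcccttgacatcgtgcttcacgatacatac
Gm29216 (chr1:24616138-24616197, minus strand): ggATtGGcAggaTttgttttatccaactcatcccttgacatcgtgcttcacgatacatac

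The levels in the table differed along the same line. The share of 75-base windows that another annotated gene holds exactly was 97.8% for *mt-Nd3*, 98.7% for *mt-Nd4l*, 99.5% for *mt-Co2* and *mt-Atp6* and 99.9% for *mt-Co3*. It was 39.8% for *mt-Co1*, 61.5% for *mt-Nd4* and at most 5.71% for *mt-Nd1*, *mt-Nd2*, *mt-Nd5*, *mt-Nd6* and *mt-Cytb*. The 5 genes with nearly all windows shared and *mt-Atp8*, which lies between the counterparts of *mt-Co2* and *mt-Atp6* but has no annotated copy, had 199 to 8981 counts over the 12 libraries. The other 7 mitochondrial genes had 222911 to 2333359. Levels between genes are compared as CPM (counts scaled to an equal library total) per kb of exon. *mt-Co1* reached 11309 CPM per kb and *mt-Cytb* 9697, against 98.7 for *mt-Co2* and 7.29 for *mt-Atp8*. With reads of several places left out, the low values cannot be read as transcript levels. Below, the 7 genes with the higher counts are called the abundant and the other 6 the scarce mitochondrial members, a division made after the values were seen. The levels of *mt-Co1* and *mt-Nd4*, with 39.8% and 61.5% of windows shared, are uncertain too and may be too low. The 7 copies on chromosome 1 had 517 to 9377 counts each, of the same order as the scarce genes.

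**Figure D1:**
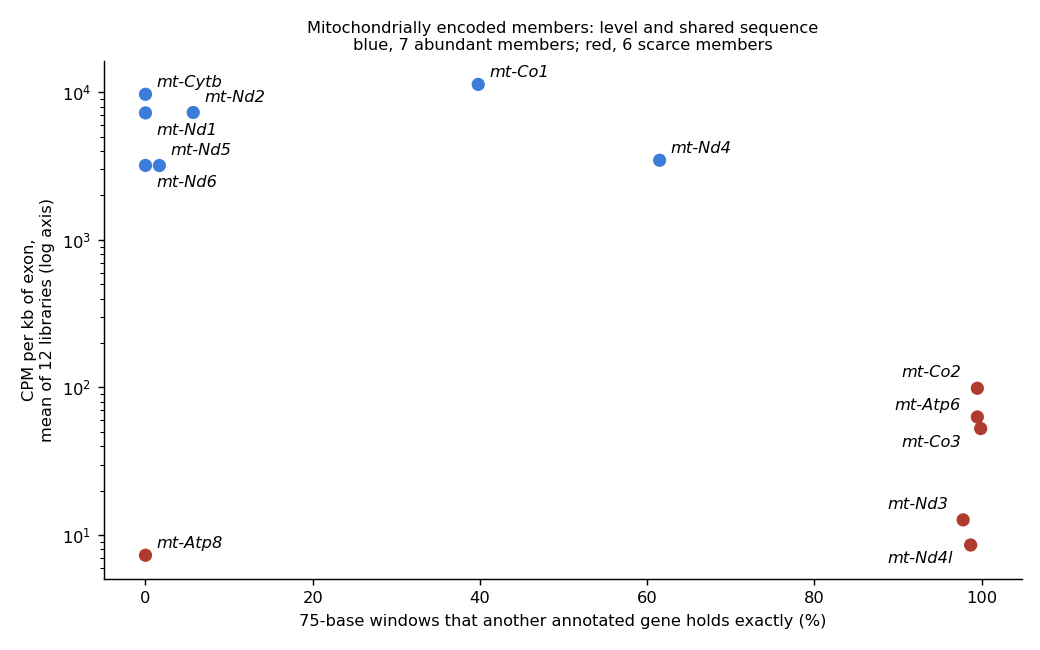
Level of the 13 mitochondrially encoded members (CPM per kb of exon, mean of 12 libraries, log axis) against the share of their 75-base windows held exactly by another annotated gene (%). The abundant members in blue sit between 3191 and 11309, and the scarce members in red between 7.29 and 98.7, 5 of them with at least 97.8% of their windows shared.

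A second limit concerned *mt-Nd6*, the only protein gene on the light strand, which overlaps the end of *mt-Nd5* by 14 bases. The last 40 bases of each gene are shown 5′ to 3′ with these 14 bases, which are reverse complements of each other, in capitals.
mt-Nd5 (chrM:13526-13565, plus strand): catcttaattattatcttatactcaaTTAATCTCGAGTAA
mt-Nd6 (chrM:13552-13591, minus strand): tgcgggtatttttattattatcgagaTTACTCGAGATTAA
The ratio of *mt-Nd6* to *mt-Nd5* counts was nearly the same in every library, 26.8 to 30.0 *mt-Nd6* counts per 100 *mt-Nd5* counts. The libraries came from a stranded kit, but the strand setting of the counting was not given, so *mt-Nd6* reads and reads from the opposite strand of its locus cannot be told apart here.

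Each library held 9091152 to 12303527 counts. The livers carried hepatocyte markers at 12.8% to 15.7% of all counts (10 of 10 markers detected, albumin alone 9.63% to 11.6%), while markers of exocrine pancreas and of brown fat and muscle were at or near 0 (at most 0.000103% and 0.000086%). *Fkbp5* and *Tsc22d3*, targets of the glucocorticoid receptor, separated the libraries by injection, and *Slc39a4*, a zinc importer, separated them by water. *Fkbp5* stood at 536 to 1490 normalised counts after PBS and 7988 to 8673 after Dex, *Tsc22d3* at 566 to 899 and 2963 to 4260. *Slc39a4* stood at 561 to 747 on plain water and 214 to 259 on zinc water after PBS, and at 550 to 734 and 186 to 245 after Dex. The metallothionein *Mt1* answered to both treatments, with 209 to 435 in water-PBS, 3427 to 6212 in zinc-PBS, 7486 to 7595 in water-Dex and 12367 to 15077 in zinc-Dex. Normalised counts are raw counts divided by the DESeq2 size factor of the library. In bulk tissue, fewer cells of a type and less RNA per cell cannot be told apart.

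In mice on plain water, Dex raised most abundant members of the mitochondrial genome and few nuclear ones. Of the 13 mitochondrially encoded members, 6 rose and 0 fell (46.2% called, DESeq2, Benjamini-Hochberg adjusted p under 0.05 over all genes), and of the 77 nuclear members 3 rose and 0 fell (3.90%), on the DESeq2 scale, while with library totals as the scale 3 mitochondrial members rose and 2 nuclear members fell. Over all genes tested, 22.0% were called in either direction and 11.8% were called higher. The share of nuclear members called higher was thus below that of all genes and the share of mitochondrial members above it. The median log2 fold change was 0.23 over the mitochondrially encoded members (0.0297 with library totals), 0.29 over the 7 abundant ones (0.0898), 0.08 over the nuclear members (-0.11) and -0.01 over all genes (-0.21). No member passed an absolute log2 fold change of 0.8 as well, a rule that called 9.79% of all genes.

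The largest called changes were those of *mt-Nd6*, *mt-Nd5* and *mt-Nd1*, genes of complex I, to which all abundant members but *mt-Co1* and *mt-Cytb* belong. *mt-Nd6*, a membrane subunit, stood at 14758, 14155 and 13936 normalised counts in water-PBS and at 20100, 19555 and 21527 in water-Dex. The log2 fold change was 0.51 ± 0.08 (SE, n = 3 mice per group, DESeq2 adjusted p = 2.33e-09). *mt-Nd5*, a proton-pumping core subunit, had 53313, 51259 and 49509 in water-PBS and 70774, 68688 and 75357 in water-Dex (0.48 ± 0.09, DESeq2 adjusted p = 3.83e-06). For both genes all treated mice lay above all controls.

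*mt-Nd1*, the subunit next to the site where ubiquinone is reduced, had 69163, 67946 and 65714 normalised counts in water-PBS and 82368, 89246 and 95237 in water-Dex. It rose by 0.40 ± 0.08 on the log2 scale (DESeq2 adjusted p = 2.45e-06). *mt-Nd2* and *mt-Nd4*, both proton-pumping subunits, rose by 0.29 ± 0.06 and 0.23 ± 0.06 (DESeq2 adjusted p = 3.19e-05 and 6.52e-04), but stood at 0.0898 and 0.0297, uncalled, when scaled to library totals. *mt-Cytb*, the core of complex III, rose by 0.25 ± 0.06 from 105840 to 114618 in water-PBS to 131004 to 133685 in water-Dex (DESeq2 adjusted p = 2.33e-04), and stood at 0.0546 and uncalled with library totals. *mt-Nd1*, *mt-Nd5* and *mt-Nd6* kept their calls on that scale, with 0.20, 0.28 and 0.32. In *mt-Nd1*, *mt-Nd2*, *mt-Nd4* and *mt-Cytb*, each called on the same normalised counts, the water-Dex mice all lay above the water-PBS mice.

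*mt-Co1*, the catalytic core of complex IV and the most abundant member, did not pass the test. It had 187546, 184723 and 188858 normalised counts in water-PBS and 193124, 201963 and 212254 in water-Dex, a log2 fold change of 0.11 ± 0.08 (95% interval -0.04 to 0.26, DESeq2 adjusted p = 0.324), or -0.08 with library totals. The 6 scarce members gave 0 calls, with log2 fold changes from -0.38 for *mt-Atp8* to 0.31 for *mt-Nd3*. Their SEs ran from 0.11 for *mt-Co2* to 0.41 for *mt-Atp8*.

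**Figure D2:**
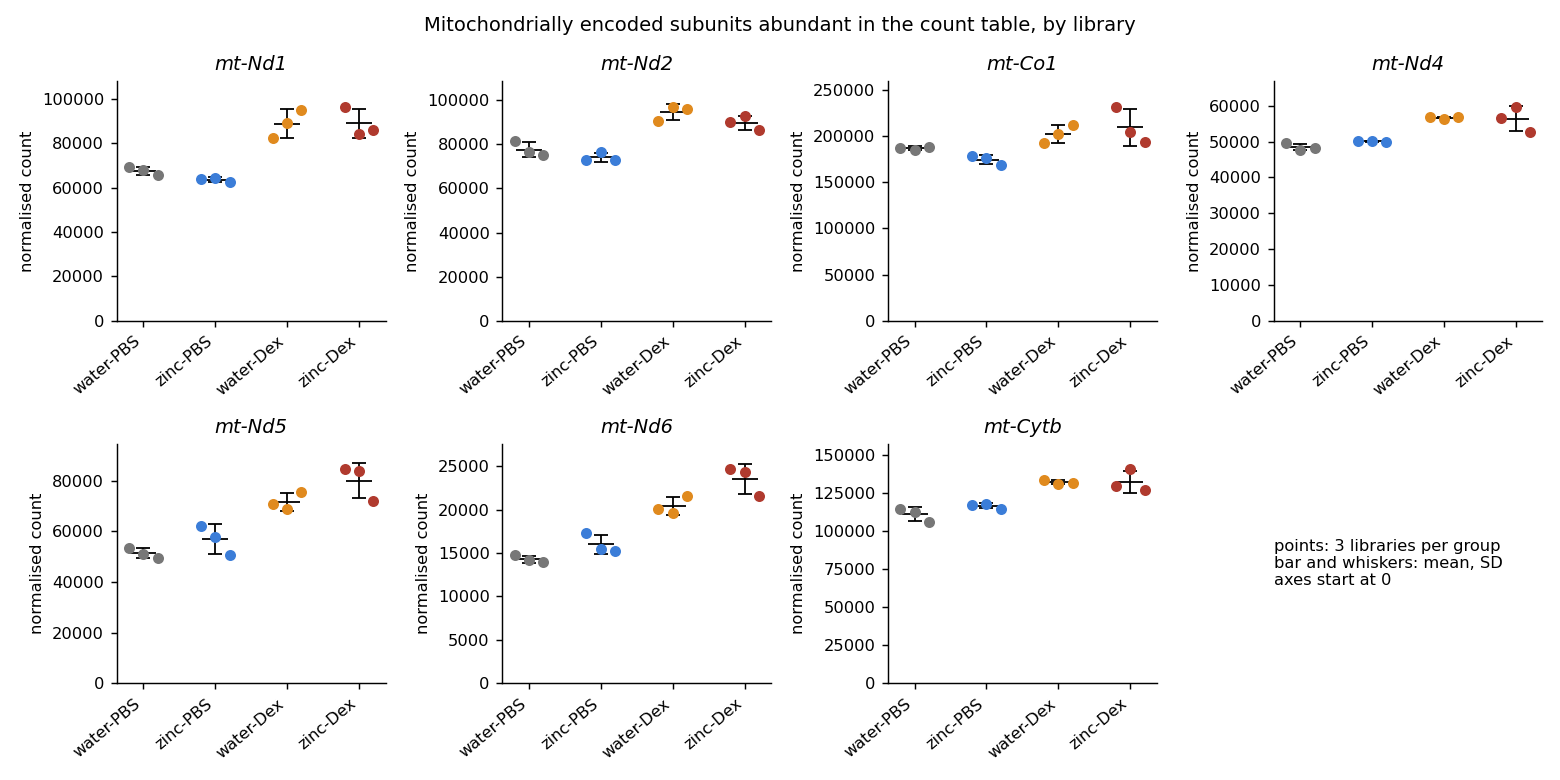
Normalised counts (axes from 0) of the 7 abundant mitochondrially encoded members in each library, with the mean and SD of 3 mice per group. On the DESeq2 scale the Dex-injected mice lie above the PBS-injected mice in all panels. For *mt-Co1* the highest PBS-injected library had 188858 normalised counts and the lowest Dex-injected one 193124. This gene was not called in plain water, and with library totals its log2 fold changes for Dex were -0.08 in plain water and 0.0355 in zinc water.

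The ratio of 2 mitochondrial genes within a library needs no size factor. *mt-Nd1* counts per 100 *mt-Co1* counts were 34.8 to 37.0 in the 6 PBS-injected mice and 41.3 to 44.9 in the 6 Dex-injected mice. *mt-Nd6* per 100 *mt-Co1* was 7.38 to 7.87 in water-PBS, 8.73 to 9.67 in zinc-PBS, 9.68 to 10.4 in water-Dex and 10.6 to 11.9 in zinc-Dex. *mt-Nd5* per 100 *mt-Co1* was 26.2, 27.7 and 28.4 in water-PBS and 30.1, 32.6 and 34.9 in zinc-PBS. After Dex it was 34.0, 35.5 and 36.6 on plain water and 36.4, 37.3 and 41.0 on zinc water. These 3 genes thus changed unequally with *mt-Co1*. In zinc-PBS the ratios of *mt-Nd5* and *mt-Nd6*, and of *mt-Nd4* and *mt-Cytb* below, lay above those in water-PBS. All these ratios share *mt-Co1*, which was itself lower in zinc-PBS (168707 to 178562 normalised counts) than in water-PBS (184723 to 188858), without being called. For *mt-Nd4*, *mt-Cytb* and *mt-Nd2* the ranges after PBS and Dex lay apart in plain water and overlapped in zinc water. *mt-Nd4* per 100 *mt-Co1* was 25.5 to 26.4 in water-PBS and 26.8 to 29.4 in water-Dex, *mt-Cytb* 56.0 to 61.1 and 62.0 to 69.2, and *mt-Nd2* 39.7 to 43.5 and 45.4 to 48.1. The zinc-PBS and zinc-Dex ranges were 28.0 to 29.5 and 24.3 to 29.2 for *mt-Nd4*, 65.7 to 67.9 and 55.7 to 68.7 for *mt-Cytb*, and 40.9 to 43.3 and 38.9 to 45.4 for *mt-Nd2*. The ratios are a description with no test.

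**Figure D3:**
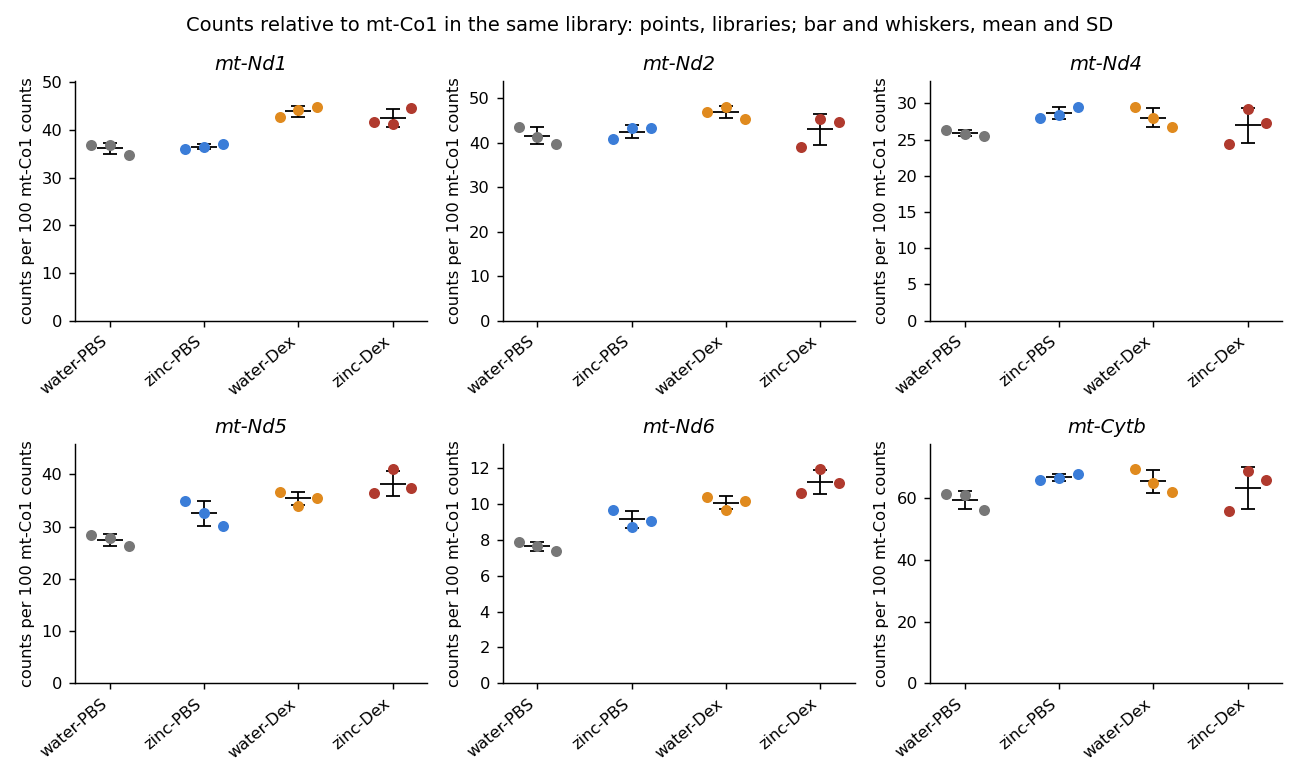
Counts of 6 mitochondrially encoded members per 100 *mt-Co1* counts of the same library (axes from 0), with mean and SD of 3 mice per group. The ratio of *mt-Nd1* is split by the injection, 34.8 to 37.0 after PBS and 41.3 to 44.9 after Dex. The ratios of *mt-Nd4* and *mt-Cytb* are higher in zinc-PBS, where *mt-Co1* was itself lower, than in water-PBS. They overlap between the injections in zinc water.

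The 3 nuclear members called in plain water were accessory subunits of complex I. *Ndufs4*, needed for a stable complex, had 595, 579 and 633 normalised counts in water-PBS and 683, 709 and 720 in water-Dex (0.23 ± 0.08, DESeq2 adjusted p = 0.0259). *Ndufa1* had 519, 531 and 519 against 659, 609 and 585 (0.24 ± 0.09, DESeq2 adjusted p = 0.0354), and *Ndufa3* had 524, 485 and 488 against 604, 587 and 591 (0.25 ± 0.09, DESeq2 adjusted p = 0.0385). The treated mice lay above the controls in all 3, which the test had picked on the same counts. On the DESeq2 scale the same held for 24 of all 77 nuclear members, and the share of all genes that lay apart was not counted. No nuclear member was called in a fit of only the 6 libraries or with water-Dex replicate 1, water-Dex replicate 2 or water-PBS replicate 2 left out (0 by DESeq2 in each). A single one was called with water-Dex replicate 3 (*Ndufa1*), water-PBS replicate 3 (*Ndufs4*) or water-PBS replicate 1 (*Cox8a*, not among the 3) left out, while the mitochondrial count was 6 in all of these fits.

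By complex, log2 fold changes above 0 in plain water on the DESeq2 scale were found for 30 of 35 nuclear complex I genes, 4 of 4 complex II genes, 8 of 8 complex III genes, 10 of 11 complex IV genes and 15 of 16 complex V genes. The medians of these groups lay between 0.07 for complex II and 0.12 for nuclear complex IV. Outside complex I, 0 nuclear members were called by DESeq2 or edgeR in this comparison. By DESeq2, 9 of the 77 nuclear members had an unadjusted p under 0.05, against 4373 of the 13998 genes tested. The share of all genes with a log2 fold change above 0 was not counted, and with library totals the nuclear median was -0.11.

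In mice on zinc water, Dex gave more calls among the nuclear members. Of 77 nuclear members 19 rose and 0 fell (24.7%, but 0 with library totals as the scale), against 20.3% of all genes called in either direction and 11.1% called higher. Of the 13 mitochondrially encoded members 8 rose and 0 fell (61.5%), and 3 rose with library totals. The median log2 fold change was 0.17 over the nuclear members (-0.05 with library totals), 0.28 over the mitochondrially encoded ones (0.0471) and -0.01 over all genes tested. With the fold rule 9.75% of all genes and 0 members were called. The interaction of zinc and Dex called 0 of 90 members (smallest DESeq2 adjusted p 0.999, 0 members called by edgeR) and 0.0229% of all genes. By DESeq2, 3 members and 522 of the 26185 genes tested had an unadjusted p under 0.05. A difference between the Dex effects in the 2 kinds of water was thus not shown.

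**Figure D4:**
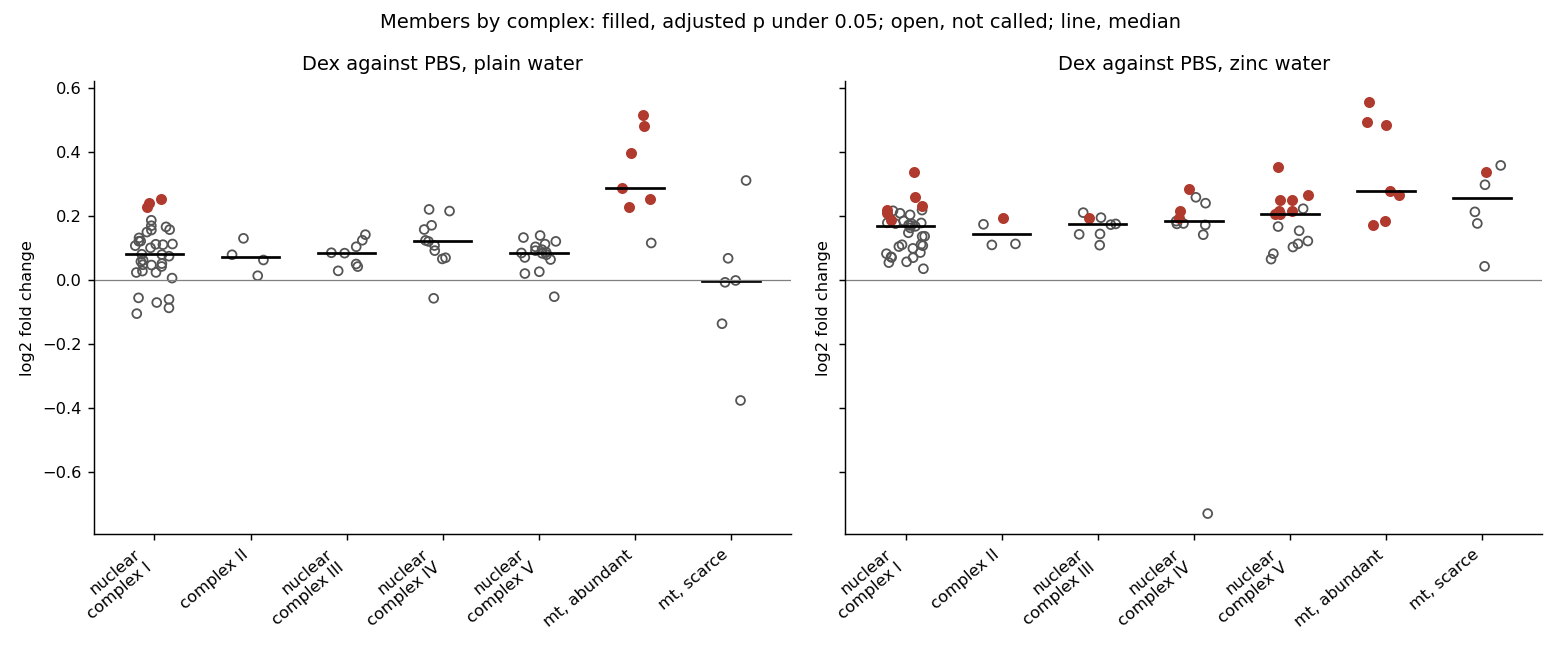
Log2 fold changes of Dex against PBS for the members of each complex, in mice on plain water (left) and on zinc water (right), with called genes filled and the group median as a line. The abundant mitochondrial members have the highest median in plain water (0.29), and nuclear calls are 3 on the left and 19 on the right, on the DESeq2 scale (with library totals the nuclear medians were -0.11 and -0.05).

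ATP synthase held 8 of the 19 nuclear calls, of 16 nuclear complex V genes. *Atp5l*, subunit g of its membrane part, had 199, 215 and 208 normalised counts in zinc-PBS and 288, 267 and 241 in zinc-Dex (0.35 ± 0.12, DESeq2 adjusted p = 0.0169). *Atp5d*, the delta subunit of the F1 stalk, had 1831, 1762 and 1775 against 2256, 1986 and 2203 (0.26 ± 0.08, DESeq2 adjusted p = 0.00656). The catalytic *Atp5b* and its partner *Atp5a1*, which with 290 and 313 CPM per kb were the most abundant nuclear members, rose by 0.25 ± 0.07 and 0.21 ± 0.07 (DESeq2 adjusted p = 0.00241 and 0.0163). The remaining complex V calls were *Atp5c1* and *Atp5f1*, of the central and outer stalks, and *Atp5g1* and *Atp5g3*, which encode the same subunit c of the ring.

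Complex I held 6 of the calls. *Ndufa2*, an accessory subunit, had 454, 509 and 475 normalised counts in zinc-PBS and 629, 593 and 593 in zinc-Dex (0.34 ± 0.09, DESeq2 adjusted p = 0.00164), and *Ndufa7*, another, had 676, 655 and 687 against 802, 808 and 802 (0.26 ± 0.08, DESeq2 adjusted p = 0.00829). The core subunits *Ndufv1* and *Ndufv2* and the accessory *Ndufa13* rose by 0.21 to 0.23. *Ndufa4*, named for complex I but a subunit of complex IV, had 2334, 2241 and 2265 against 2925, 2771 and 2628 (0.28 ± 0.07, DESeq2 adjusted p = 6.15e-04). *Cox7a2* and *Cox6c* of complex IV, *Uqcrc1* of complex III and *Sdha* of complex II rose by 0.19 to 0.21. In all 19 genes, picked by the test on the same counts, the zinc-Dex mice lay above the zinc-PBS mice. The same held for 46 of all 77 nuclear members on this scale, and the share of all genes that lay apart was not counted.

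The number of nuclear calls in zinc water moved with single libraries. It was 4 when zinc-Dex replicate 1 was left out, which had the highest mean level of the nuclear members of all libraries (9.94 against 9.68 to 9.86 in the other 11, as mean log2 of normalised count + 1). Omitting a zinc-PBS mouse gave 11 (replicate 1), 4 (replicate 2) or 5 (replicate 3) calls, and omitting another zinc-Dex mouse gave 18 (replicate 2) or 12 (replicate 3). *Atp5b*, *Ndufa2* and *Ndufa4* were called in each of these fits. For the mitochondrially encoded members the number was 5 without zinc-Dex replicate 2, zinc-PBS replicate 2 or zinc-PBS replicate 3, and 6 to 8 without one of the others. Only 3 nuclear members, *Atp5d*, *Ndufa2* and *Ndufa4*, were called in a fit of the 6 libraries compared, with 6 mitochondrially encoded ones.

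Among the mitochondrially encoded members in zinc water, *mt-Nd6* rose by 0.56 ± 0.08 (17264, 15448 and 15261 normalised counts in zinc-PBS, 24611, 24356 and 21562 in zinc-Dex, DESeq2 adjusted p = 7.05e-11). *mt-Nd5* rose by 0.49 ± 0.09 and *mt-Nd1* by 0.48 ± 0.08 (DESeq2 adjusted p = 1.90e-06 and 3.45e-09). *mt-Co1* passed the test here, with 178562, 176938 and 168707 against 232013, 204310 and 193259 (0.26 ± 0.08, DESeq2 adjusted p = 0.00446), but not with library totals (0.0355). *mt-Nd2*, *mt-Nd4* and *mt-Cytb* rose by 0.28 ± 0.06, 0.17 ± 0.06 and 0.18 ± 0.06 (DESeq2 adjusted p at most 0.0165), which became 0.0471, -0.06 and -0.05, none called, with library totals. The scarce *mt-Co2*, a subunit that receives electrons from cytochrome c, rose by 0.34 ± 0.11 from only 602 to 659 normalised counts (DESeq2 adjusted p = 0.0193), and its chromosome 1 copy *Gm28661* rose by 0.28. With library totals *mt-Co2* was at 0.109 and not called.

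Both treatments together were set against the control as well, a comparison that shares its libraries with those above. In zinc-Dex against water-PBS 8 nuclear members (10.4%) and 6 mitochondrially encoded ones (46.2%) rose and 0 fell, against 23.8% of all genes called, 12.9% called higher and 11.0% called with the fold rule, which held 0 members. With library totals 2 mitochondrial members (*mt-Nd5* and *mt-Nd6*) were called higher and 1 nuclear member (*Uqcr10*) lower. *mt-Nd6* rose by 0.72 ± 0.08 and *mt-Nd5* by 0.64 ± 0.09 (DESeq2 adjusted p = 6.37e-18 and 1.41e-10), and *mt-Nd1*, *mt-Cytb*, *mt-Nd4* and *mt-Nd2* by 0.21 to 0.40, which became 0.157, 0.0114, -0.025 and -0.031, none called, with library totals. The nuclear calls with the largest changes were the complex I accessory genes *Ndufc2*, *Ndufa2* and *Ndufa7* (0.31, 0.28 and 0.28), *Cox8a* (0.26) and *Ndufa4* (0.22, or -0.021 with library totals). *Ndufc2* had 619, 618 and 741 normalised counts in water-PBS and 862, 802 and 782 in zinc-Dex. Omitting a water-PBS mouse gave 4 (replicate 1), 1 (replicate 2) or 4 (replicate 3) nuclear calls, omitting a zinc-Dex mouse gave 1, 11 or 4 in the same order, and the fit of the 6 libraries gave 0.

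Zinc alone called no member. In zinc-PBS against water-PBS 0 of 77 nuclear and 0 of 13 mitochondrially encoded members passed (DESeq2 and edgeR), against 0.351% of all genes. Unadjusted p was under 0.05 for 1 and 3 of the members by DESeq2, against 700 of 11967 genes tested, and for 2 and 2 by edgeR. The smallest adjusted p was 0.424, for *mt-Co2*, which had 723 to 838 normalised counts in water-PBS and 602 to 659 in zinc-PBS (-0.31 ± 0.11). *mt-Co3* had 395 to 600 and 356 to 390 (-0.42 ± 0.16), so these scarce complex IV genes lay lower in the zinc-PBS mice, without overlap and without passing the test. In the Dex-injected mice, zinc-Dex against water-Dex, 0 and 0 passed as well, against 1.39% of all genes. Unadjusted p was under 0.05 for 3 and 1 of the members by DESeq2, against 1288 of 12475 genes tested, and for 5 and 1 by edgeR. *mt-Nd6* stood at 13936 to 14758 in water-PBS and 15261 to 17264 in zinc-PBS, and after Dex at 19555 to 21527 on plain water and 21562 to 24611 on zinc water. Zinc mice thus lay above water mice within each injection, by log2 fold changes of 0.16 ± 0.08 and 0.21 ± 0.08 that did not pass (DESeq2 adjusted p = 0.803 and 0.229). The 95% intervals were 0.01 to 0.32 and 0.05 to 0.36.

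The direction of the nuclear members depended on the scale. As a share of all counts the 13 mitochondrially encoded members took 5.20% to 5.53% after PBS and 5.42% to 5.96% after Dex, and the 77 nuclear members 1.003% to 1.09% and 0.931% to 1.04%. Scaled to library totals, the median log2 fold change of all genes moved to -0.21 in plain water and -0.23 in zinc water, and that of the nuclear members to -0.11 and -0.05. Relative to the median of all genes the nuclear members kept 0.10 and 0.18 on that scale, and the mitochondrially encoded members 0.24 and 0.28. Scaled this way, 0 nuclear members were higher in either comparison and *Ndufa6* and *Ndufv3* were lower in plain water, while *mt-Nd1*, *mt-Nd5* and *mt-Nd6* stayed called higher in both kinds of water. The 100 most abundant genes took 41.3% to 42.6% of counts after PBS and 43.9% to 45.2% after Dex. The ratio of mitochondrial to nuclear member counts, which needs no scale, was 5.06 to 5.37 after PBS and 5.50 to 6.11 after Dex, with no overlap between the 6 and the 6 libraries.

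**Figure D5:**
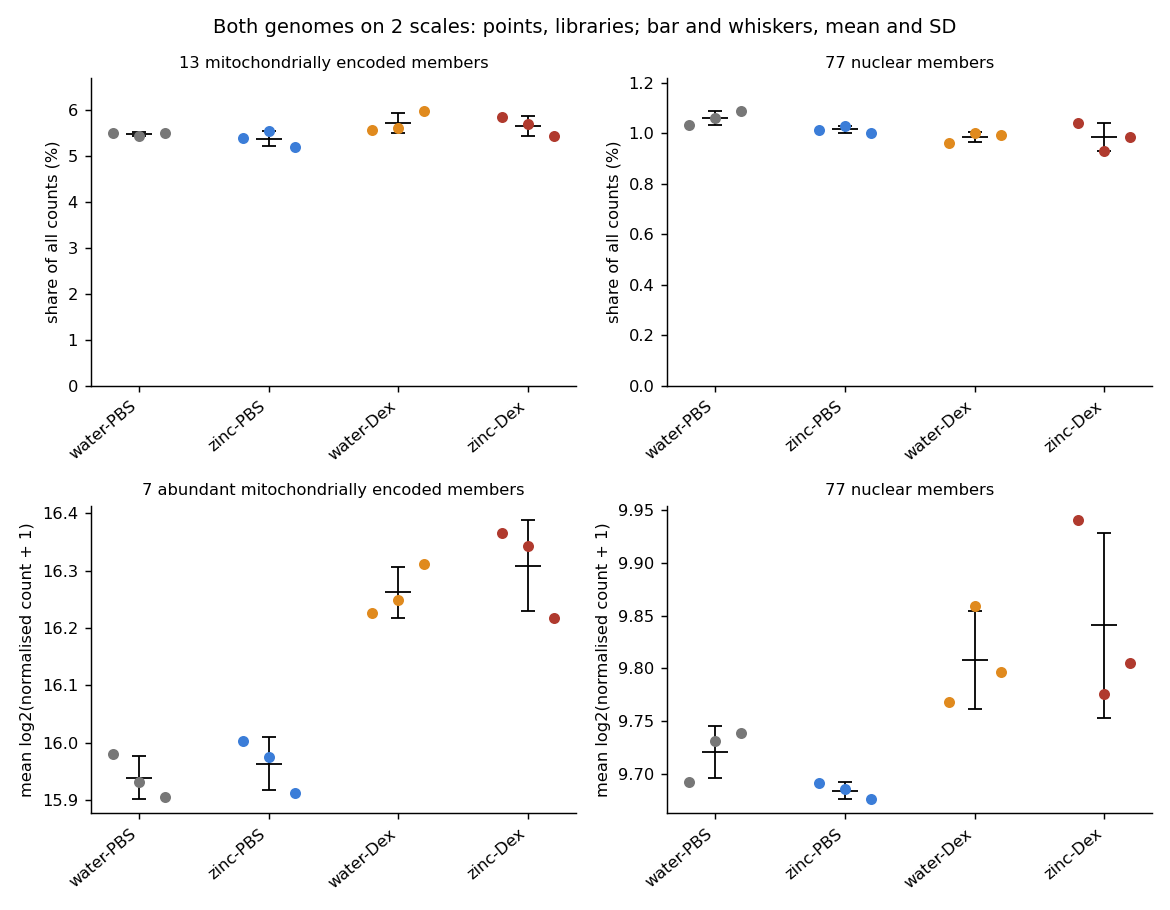
The 2 genomes on 2 scales in each library, with mean and SD of 3 mice per group. As a share of counts (upper panels, from 0) the nuclear members run from 1.003% to 1.09% after PBS and from 0.931% to 1.04% after Dex, while their mean log2 normalised count (lower panels, axis not from 0) runs from 9.68 to 9.74 and from 9.77 to 9.94.

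Other measures are given after PBS and after Dex, and several of their ranges overlapped. The nuclear-retained RNAs *Malat1* and *Neat1* together took 0.0258% to 0.0439% of counts after PBS and 0.0139% to 0.0249% after Dex. Hepatocyte markers took 12.8% to 14.2% and 15.0% to 15.7%, Kupffer cell markers 0.0561% to 0.0774% and 0.0526% to 0.0678%, lymphocyte and neutrophil markers 0.00259% to 0.00355% and 0.00159% to 0.00212%, and red blood cell markers 0.00742% to 0.0156% and 0.0102% to 0.0183%. Sinusoidal endothelial markers took 0.0465% to 0.0489% and 0.0408% to 0.0467%, stellate cell markers 0.0411% to 0.0460% and 0.0388% to 0.0433%, cholangiocyte markers 0.00641% to 0.0115% and 0.00499% to 0.00958%, and gut epithelium markers 0.00632% to 0.00963% and 0.00491% to 0.00631%. Within these sums single markers differed. With Dex in plain water, log2 fold changes ran from 0.14 to 2.72 for hepatocyte markers and from -1.14 to 2.53 for sinusoidal endothelial markers. The sums are therefore no measure of cell numbers. The part of these measures in the changes of the members was not tested. The mitochondrial ribosomal RNAs *mt-Rnr1* and *mt-Rnr2*, from the same strand as the abundant protein genes but *mt-Nd6*, took 0.157% to 0.289% and 0.146% to 0.250%, with the lowest values in zinc-PBS replicate 2 and zinc-Dex replicate 1, and neither was called in any comparison (log2 fold changes of 0.00 and -0.09 for Dex in plain water).

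Several subunits have a liver form and a form of other tissues, and the liver libraries held the former. *Cox6a1* had 214 CPM per kb and *Cox6a2*, its heart and muscle form, at most 2 counts in a library. *Cox6b1* had 173, and *Cox6b2*, the testis form, at most 4 counts in a library. *Cox8a* had 205, and *Cox8b* and *Cox8c* had 0 counts in every library, which allows up to 3 counts in each. *Cox7b* had 124 and *Cox7b2* 0 counts. *Cox7a2* had 121 and *Cox7a1*, the muscle form, 1.96 with 141 counts in all, just above the floor. *Cox7a1* had the lowest log2 fold change of all members for Dex in zinc water, and was not called.

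*Ndufa4l2*, a relative of *Ndufa4* known for its induction by low oxygen, was the other member just above the floor with 138 counts, and had 0.937 CPM per kb against 165 for *Ndufa4*. Its log2 fold change for both treatments together, 0.83 ± 0.48, did not pass (DESeq2 adjusted p = 0.226). Of the 3 genes for subunit c, *Atp5g3* had 145, *Atp5g2* 13.8 and *Atp5g1* 11.9. *Cox7a2l*, a factor of supercomplexes, had 30.9 and *Atp5s*, a coupling factor that matched by symbol but is not a subunit, 3.09, and neither was called in any comparison. A second identifier for *Atp5o* had 0 counts. These levels use all annotated exons of a gene, which lowers genes with long and little used exons.

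The levels of the nuclear members were far below those of the abundant mitochondrial ones. The median nuclear member had 52.7 CPM per kb, and the 5 highest were *Atp5a1*, *Atp5b*, *Cox6a1*, *Cox8a* and *Sdhd* with 185 to 313, against 3191 to 11309 for the abundant mitochondrial members. Of the 4 genes of complex II, the succinate dehydrogenase of the citric acid cycle, *Sdhd* had 185, *Sdha* 133, *Sdhb* 80.6 and *Sdhc* 52.7. *Sdha*, its catalytic subunit, was the only one called in the main fit. It had 5669, 5839 and 5477 normalised counts in zinc-PBS and 6941, 6223 and 6249 in zinc-Dex (0.19 ± 0.07, DESeq2 adjusted p = 0.0455). *Sdha* was not called by edgeR, with library totals, with a replicate block or in the fit of the 6 libraries. Leaving out any single library of this comparison also lost the call, and without zinc-Dex replicate 2 *Sdhc* was called instead.

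Some nuclear members share exon bases with a gene on the other strand, 24 of 77 in all. Among the called members named here, *Ndufa13* shared 375 bases with *Tssk6*, *Atp5f1* 337 with *Wdr77* and *Gm42890*, *Cox6c* 250 with *Vps13b*, *Atp5l* 133 bases with *Gm30934*, *Atp5a1* 129 with *Haus1*, *Atp5d* 68 with *Cbarp*, *Ndufa2* 66 with *Tmco6* and *Ndufa3* 4 with *Tfpt*, and their counts are uncertain to that extent. For 4 nuclear members, *Atp5g2*, *Atp5o*, *Ndufb6* and *Ndufa13*, over 20% of 75-base windows (25.6% to 35.8%) were held by another annotated gene.

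Of 46 assembly factors, which build the complexes without staying in them, 2 rose and 3 fell with Dex in plain water and 1 rose and 3 fell in zinc water. These shares, 10.9% and 8.70%, were below the 22.0% and 20.3% of all genes called. *Coa6*, which helps to load copper into complex IV, rose by 1.02 and 1.28, and *Ndufaf4*, of complex I, by 0.34 in plain water. *Tmem186* and *Tmem126b*, of complex I assembly, fell by 0.57 and 0.42 in plain water and by 0.63 and 0.49 in zinc water, *Sdhaf1*, of complex II, fell by 1.06 in plain water, and *Taco1*, an activator of *mt-Co1* translation, fell by 0.46 in zinc water. Among 8 subunits and electron carriers whose symbols the rule did not match, *Cycs*, cytochrome c, rose by 0.31 and 0.37. *Cyc1* and *Cox4i1* rose by 0.21 and 0.16 in zinc water. The changes in these lists, and in the lists below, are on the DESeq2 scale only. With library totals the median of all genes was -0.21 in plain water and -0.23 in zinc water, so the direction of small changes depends on the scale.

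Of 28 genes for mitochondrial transcription, replication and RNA handling, 2 rose and 1 fell in plain water and 3 rose and 2 fell in zinc water (10.7% and 17.9%, against 22.0% and 20.3% of all genes). *Trmt10c*, a subunit of the enzyme that cuts transfer RNAs out of the long transcripts, rose by 0.53 and 0.34, *Mterf3*, known as a repressor of mitochondrial transcription, by 0.35 and 0.43, and *Tbrg4*, an RNA-binding FASTK family protein, by 0.33 in zinc water. *Twnk*, the replicative helicase, fell by 0.58 and 0.67, and *Mterf4* by 0.51 in zinc water. *Tfam*, which packages the genome and starts its transcription, had 566, 577 and 596 normalised counts in water-PBS and 504, 534 and 539 in water-Dex (-0.14, not called), and *Polrmt*, the mitochondrial RNA polymerase, was not called in any comparison.

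Of 18 nuclear regulators of the subunit genes, 6 rose and 3 fell in plain water and 7 rose and 2 fell in zinc water (50% in each, against 22.0% and 20.3% of all genes). The coactivator *Ppargc1a* had 138, 114 and 131 normalised counts in water-PBS and 206, 181 and 192 in water-Dex (0.60), with 183, 102 and 130 in zinc-PBS and 295, 230 and 220 in zinc-Dex (0.84). Its relative *Ppargc1b* rose by 1.32 and 0.98. The largest rises were those of *Ppard* (2.13 and 1.70) and *Myc* (1.95 and 1.38). *Esrrb* fell by 1.52 in plain water, *Nfe2l2* by 1.02 and 0.71 and *Nr3c1*, the glucocorticoid receptor gene, by 0.31 and 0.56. The partners *Nrf1* and *Esrra*, factors that bind subunit gene promoters, were not called in any comparison (0.10 and -0.49 for Dex in plain water).

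Other gene families made of many small subunits are given for comparison. Of 85 cytosolic ribosomal protein genes 29 rose and 1 fell with Dex in plain water, and 20 rose and 2 fell in zinc water, with medians of 0.18 and 0.16 (35.3% and 25.9% called, against 22.0% and 20.3% of all genes). Of 77 mitochondrial ribosomal protein genes, likewise nuclear genes for a mitochondrial complex, 2 rose and 0 fell, and 2 rose and 2 fell, with medians of 0.01 and 0.04 (2.60% and 5.19% called). Differences between these families, and between them and the nuclear members, were not tested. The calls and medians of the ribosomal families are on the DESeq2 scale only.

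RefSeq promoter windows (250 bases before to 50 after the start, GRCm38.p6) were matched for 63 of the 77 nuclear members and searched on both strands for short motifs of factors known from subunit gene promoters. The motif of NRF1, GCGCATGCG, was in the windows of 8 of 63 members (12.7%) and 1.95% of all 27025 genes, and the YY1 motif, AAGATGGCG, in 7 (11.1%) and 1.64%. The ETS motif, CCGGAAG, bound by GABPA, was in 16 (25.4%) and 9.93%, and the ERR motif, TCAAGGTCA, in 2 (3.17%) and 0.466%. The full palindrome of the glucocorticoid receptor, AGAACA and TGTTCT with 3 bases between them, was in 0 of 63 and 0.0111%. A match is a description of the letters and no evidence of binding. The 27025 genes are all those with a window, expressed in the liver or not, so the shares are not a comparison among expressed genes. The windows of *Atp5l*, which had the largest called nuclear change in zinc water, and of *Ndufs4*, called in plain water, are shown 5′ to 3′ as examples of the NRF1 and ETS motifs and of the YY1 motif, with motifs of either orientation in capitals.
Atp5l (chr9:44920693-44920992, minus strand): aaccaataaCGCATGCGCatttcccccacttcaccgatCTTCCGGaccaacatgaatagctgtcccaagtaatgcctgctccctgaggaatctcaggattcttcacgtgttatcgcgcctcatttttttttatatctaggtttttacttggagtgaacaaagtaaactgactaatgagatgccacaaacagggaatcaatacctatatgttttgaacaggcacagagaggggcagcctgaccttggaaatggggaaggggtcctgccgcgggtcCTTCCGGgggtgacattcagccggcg
Ndufs4 (chr13:114388045-114388344, minus strand): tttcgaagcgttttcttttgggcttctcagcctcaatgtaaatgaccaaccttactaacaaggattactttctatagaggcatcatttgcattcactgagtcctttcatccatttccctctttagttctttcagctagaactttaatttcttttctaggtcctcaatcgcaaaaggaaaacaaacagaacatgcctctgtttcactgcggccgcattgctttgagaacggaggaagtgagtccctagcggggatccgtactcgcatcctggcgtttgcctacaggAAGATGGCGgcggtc
In *Atp5l* the NRF1 letters lay 241 to 233 bases before the start and those of ETS 212 to 206 before and 24 to 30 after it, and in *Ndufs4* the YY1 letters lay 35 to 43 bases after it.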

How the data were processed

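Liver RNA of 12 mice (3 per group) was sequenced by the authors as single-end reads of stranded libraries, trimmed, mapped to mm10 with hisat (HISAT2 2.0.4 in the submitters' processing notes) and counted per Ensembl gene with featureCounts, leaving out multimapping reads. The deposited values are raw counts, not normalized, and all 12 columns were used. The counting's strand setting and annotation release are not given in the sources used here. Symbols, coordinates and transcripts came from GENCODE M21 (54723 of 54838 identifiers).

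The members and gene lists were chosen with earlier results of these data known. DESeq2 1.42.0 in R 4.3.3 was fitted once to the 12 libraries with a term per group (Wald test, unshrunken log2 fold changes, default size factors and filters), following the study's methods, and a gene was called where its Benjamini-Hochberg adjusted p, over the 11967 to 26185 genes tested in a comparison, was under 0.05. Interaction means the Dex effect in zinc water minus that in plain water. For 1 value in 3 mice against 3, the smallest p of an exact permutation test is 0.10. The labels number the replicates but do not say more of them, so p-values measure the spread between these samples. Replicates of a group varied 6.21 to 20.8 times as much as counting alone (chi-square per degree of freedom), so none was a copy of another. Alternatives were edgeR 4.0.16, other size factors, a count filter, a replicate block, the 6 libraries compared, the fold rule and leaving out each library. On simulated counts for water-Dex against water-PBS (13255 genes, few of them changed), DESeq2 recovered 100% of genes changed by a log2 of 1 and 61% of those changed by 0.5. In that setting smaller changes were called less surely, and 11 of the 172 calls were false. The real comparison called 22.0% of all genes, so these shares do not measure how surely the members are called.

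The text names all mitochondrially encoded members, the 5 nuclear members with the largest called changes each way per comparison, the 5 with the highest counts per kb, the tissue forms, members near or under the floor, up to 3 called genes each way per list, and *Ppargc1a*, *Ppargc1b*, *Esrra*, *Nrf1*, *Tfam* and *Polrmt*. Other called members that are named were named after their values were seen, and not every called member is reported by name here. Sequence windows shared by genes were counted as exact matches on either strand of the GENCODE transcripts.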

Additional observations from a re-analysis of the deposited data

How the results depend on the processing

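Results of the members were computed again under 3 to 19 alternatives each. With library totals as size factors, the nuclear count became 2 (both lower) for Dex in plain water, 0 in zinc water and 1 (lower, *Uqcr10*) for both treatments against the control, and the mitochondrial count 3, 3 and 2. The nuclear medians became -0.112, -0.0549 and -0.121 and the mitochondrial ones 0.0297, 0.0471 and -0.031. On that scale the mean log2 level of Dex-injected minus PBS-injected mice was -0.0895 for nuclear and 0.122 for abundant mitochondrial members. The direction of 5 called changes turned: *mt-Nd4* (-0.0575) and *mt-Cytb* (-0.0456) in zinc water, and *Ndufa4* (-0.021), *mt-Nd2* (-0.031) and *mt-Nd4* (-0.025) for both treatments. The cause was not tested. With the fold rule all counts became 0. edgeR called 12 nuclear members for Dex in zinc water. In fits of the 6 libraries the nuclear counts were 0, 3 and 0.

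Same-numbered libraries of different groups did not deviate together from their group means (correlations -0.15 to 0.05 over 18 pairs, and 0 of 12 libraries were closest to their own number). The counts thus gave no sign of pairing by replicate number. The labels do not say whether same-numbered mice were handled together. With a replicate block the nuclear counts were 0, 3 and 1.

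Leaving out 1 library gave 0 to 1, 4 to 18 and 1 to 11 nuclear calls and 6 to 6, 5 to 8 and 6 to 7 mitochondrial calls for Dex in plain water, Dex in zinc water and both treatments, and 0 to 0 in the other comparisons. Mitochondrial medians then ran from 0.12 to 0.24, 0.20 to 0.31 and 0.19 to 0.24, from -0.089 to 0.0365 for zinc after PBS and from -0.0445 to 0.0867 for zinc after Dex. Nuclear medians ran from 0.07 to 0.11, 0.11 to 0.20 and 0.07 to 0.15, and from 0.0217 to 0.114 for the interaction.

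Of 33 called results of named members, 8 were called under each of 13 alternatives (the fold rule, which called none, is not among them), all of them *mt-Nd1*, *mt-Nd5* or *mt-Nd6*.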
